A study of Mus musculus with 70 samples.

Results

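The mitochondrial respiratory chain genes were described in RENCA cells passaged in mice, as 85 genes among the 21154 gene symbols that had a probe on the array. They were taken as all genes whose symbol opens with Ndufa, Ndufb, Ndufc, Ndufs, Ndufv, Sdha to Sdhd, Uqcr, Cox4 to Cox8 or Atp5, without the Ndufaf assembly factors and without pseudogenes. Ndufb1, Ndufb4b and Ndufb4c met the rule but had no probe. Grouped by symbol, the 85 genes comprised 38 of complex I (all Nduf genes), 4 of complex II, 8 of complex III, 18 of complex IV and 17 of complex V. Together they had 114 probes, and each of the 22 genes with several probes was represented by its brightest probe. RENCA is a mouse renal adenocarcinoma line of BALB/c origin, and here all samples derived from 1 GFP-expressing stock made with a lentivirus. Parental cells kept in culture (P0) were compared with cells recovered from female 6-week-old immunocompetent BALB/c mice after each of 6 rounds of implantation (P1 to P6). Kidney Primary Tumor cells (KPT) were implanted under the renal capsule and taken from the kidney tumor. Tail-to-Lung-Metastases cells (T-LM) were injected into the tail vein and taken from lung metastases. Kidney-to-Lung-Metastases cells (K-LM) were implanted under the renal capsule and taken from lung metastases. The parental P0 cells gave 2 RNA samples, and the passages in order gave 5, 2, 2, 3, 5 and 5 for KPT, then 5, 2, 3, 4, 6 and 4 for T-LM, and only 1, 1, 5, 3, 4 and 3 for K-LM. For T-LM P1 replicate 1 the title does not name the route, which was taken from another label of that sample. By the study's methods, explants were digested and cultured until GFP-negative cells were no longer seen, so the recovered cells differ from P0 by growth in a host and by a return to culture. The labels' extraction protocol describes a tissue homogeniser, and the sources used here do not settle whether the RNA came from cultured cells or from explants, so markers of host cells are given beside the results they move with. The labels do not tie samples to animals, so p-values measure the spread between these samples, which may be partly technical.

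The respiratory chain passes electrons from NADH through complex I and from succinate through complex II to ubiquinone, then through complex III and cytochrome c to complex IV, where oxygen is reduced. Proton pumping by complexes I, III and IV drives complex V, the ATP synthase. Most subunits are encoded in the nucleus, and some exist as tissue-specific or hypoxia-induced isoforms. Clear cell renal carcinoma is known for low respiratory chain activity and for high NDUFA4L2, a target of hypoxia-inducible factors. The core subunits encoded by mitochondrial DNA had no probe among those with a symbol (0 of 26 mitochondrial gene symbols looked for). Another 27655 probes had no symbol, so the array may still hold probes for these subunits.

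The promoters of 4 members are shown because these genes met the significance threshold in a comparison below, or, for Cox6a1, because it is the partner of a member that did and holds both motifs searched. NRF1 and ETS-family factors such as GABP are known regulators of nuclear respiratory genes. The motifs GCGCANGC (NRF1-type) and CCGGAAG (ETS-type) were searched on both strands from 250 bases before to 50 bases after the start of each gene. The sequences are from RefSeq on GRCm38.p6, 5′ to 3′ on the gene's strand, with motif matches in capitals. Cox6a1 lies on the minus strand at chr5:115348909-115349208, Uqcrh on the minus strand at chr4:116075021-116075320, Ndufs8 on the minus strand at chr19:3912725-3913024 and Ndufa4 on the minus strand at chr6:11907401-11907700.
Cox6a1: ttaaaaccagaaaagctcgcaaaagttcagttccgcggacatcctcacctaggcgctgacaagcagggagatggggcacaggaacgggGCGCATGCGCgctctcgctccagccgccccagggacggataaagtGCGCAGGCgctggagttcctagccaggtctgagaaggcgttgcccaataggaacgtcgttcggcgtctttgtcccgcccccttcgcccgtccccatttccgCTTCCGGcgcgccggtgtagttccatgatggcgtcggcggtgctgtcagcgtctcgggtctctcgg
Uqcrh: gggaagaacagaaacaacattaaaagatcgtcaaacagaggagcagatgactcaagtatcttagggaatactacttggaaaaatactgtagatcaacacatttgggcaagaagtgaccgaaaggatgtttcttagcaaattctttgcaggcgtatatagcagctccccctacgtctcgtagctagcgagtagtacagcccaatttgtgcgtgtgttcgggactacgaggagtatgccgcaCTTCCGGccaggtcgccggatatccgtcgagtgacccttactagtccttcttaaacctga
Ndufs8: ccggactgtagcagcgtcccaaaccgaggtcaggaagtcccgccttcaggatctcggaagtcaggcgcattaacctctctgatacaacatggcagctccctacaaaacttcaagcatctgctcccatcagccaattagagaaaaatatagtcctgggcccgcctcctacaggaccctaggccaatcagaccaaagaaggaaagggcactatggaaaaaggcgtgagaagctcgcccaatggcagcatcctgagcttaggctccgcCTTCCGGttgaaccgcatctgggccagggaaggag
Ndufa4: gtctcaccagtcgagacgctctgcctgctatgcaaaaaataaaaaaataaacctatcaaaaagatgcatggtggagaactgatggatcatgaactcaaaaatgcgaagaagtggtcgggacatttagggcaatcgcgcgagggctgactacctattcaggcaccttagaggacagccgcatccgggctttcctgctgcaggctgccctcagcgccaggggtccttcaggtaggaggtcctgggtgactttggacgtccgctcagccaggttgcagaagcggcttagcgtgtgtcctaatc
Cox6a1 held 3 NRF1-type matches, some overlapping on opposite strands, and 1 ETS-type match. Uqcrh and Ndufs8 held 1 ETS-type match each, and Ndufa4 held neither. A promoter entry was matched for 69 of the 85 members. Among these, 22 (31.9%) held the NRF1-type motif, against 10.1% of all 27025 promoters, and 16 (23.2%) held the ETS-type motif, against 9.12%. Either motif was present in 31 member promoters (44.9%) and in 17.5% of all. The CCAAT box, searched for comparison, was in 43.5% of member promoters and 37.9% of all. These matches describe the sequence and are not evidence of binding.

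Levels are given as log2 of the scanner's processed signal minus the 75th percentile of commonly detected probes on the same array, so a level can be compared across samples of 1 gene but not between genes. Of the 85 members, 79 were well above background on every array on which they were measured. The isoform genes made up the rest, with Ndufa4l2 above background on 66 of 70 arrays, Cox6b2 on 57, Cox4i2 on 51, Cox7b2 on 1, and Cox8b and Cox8c on none. The last 3 were not tested, which left 82 members in each comparison. Over all arrays, 25.2% to 55.2% of probes were well above background. Of 6 markers of renal epithelium, Krt8, Krt18 and Pax8 were detected on all 70 arrays, Car9 on 67, Cdh16 on 24 and Pax2 on none. Mean Cdh16 was -8.51 in P0, -4.61 in KPT P6, -7.17 in T-LM P6 and -8.22 in K-LM P6. The markers of fibroblasts (Pdgfra, Col1a1, Col1a2, Dcn and Lum) did not stay at the P0 level: their summed level was -5.35 to -5.12 in P0 and -1.04 to 0.12 in KPT P6, 1.02 to 2.79 in T-LM P6 and -0.06 to 1.59 in K-LM P6. The arrays of K-LM P6 and 5 repeat arrays (of P0 replicates 1 and 2 and of replicates 1, 2 and 4 of KPT P6) lay on 1 slide scanned later with another software version, and the K-LM and P6 fits carry a term for it. Levels of these 5 samples average both arrays, and in 4 of the 5 the late array read lower for most members (median -0.11 to -0.23). The KPT and T-LM fits from P0 use first arrays only and the K-LM fit corrects for the slide, so a fitted change can differ from the difference of the printed levels, also in sign.

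The first question was whether respiratory chain transcripts changed between P0 and P6. Most did not pass the threshold (limma, Benjamini-Hochberg adjusted p of 0.01 or less), and the exceptions were the same pair of isoform genes in each route. Both Ndufa4l2 and Cox6a2 rose in KPT, T-LM and K-LM, which makes 2 of 82 members (2.44%) in each. Over all tested probes, the KPT fit called 3.87% of 20983, the T-LM fit 7.3% of 21384 and the K-LM fit 5.44% of 22400. The members' shares were not above this background. At an unadjusted p under 0.05 there were 10, 11 and 7 members. The 3 comparisons share the P0 samples, so they are not independent of each other. In bulk RNA, a lower level can come from fewer cells of a type or from less RNA per cell, and these cannot be told apart.

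The sizes of the changes were small. The median change of the members was -0.14 on the log2 scale in KPT, against -0.01 over all tested probes, with 64 of 82 members below 0. In T-LM it was -0.23 against 0.00 (68 of 82 below 0), and in K-LM it was -0.14 against 0.00 (59 of 82 below 0). Absolute changes of over 1 log2 unit were seen in 2 members in each route (2.44%), compared with 8.36%, 14% and 11.4% of all tested probes. The 95% interval of the change lay within 1 log2 unit on either side of 0 for 76, 63 and 74 of the 82 members, whereas 62.2%, 48.7% and 50.9% of all probes met this. Scaling by the 75th percentile of all probes moved the median of all probes from -0.01 to -0.14 in KPT and from 0.00 to -0.22 in T-LM. The members minus all probes, -0.13 in KPT and -0.23 in T-LM, were -0.06 and -0.14 on the deposited values and -0.07 and -0.14 with normexp and quantile normalization, so the size of this shift depends on the normalization. In K-LM they were -0.14, -0.17 and -0.14 in these 3 settings.

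**Figure D1:**
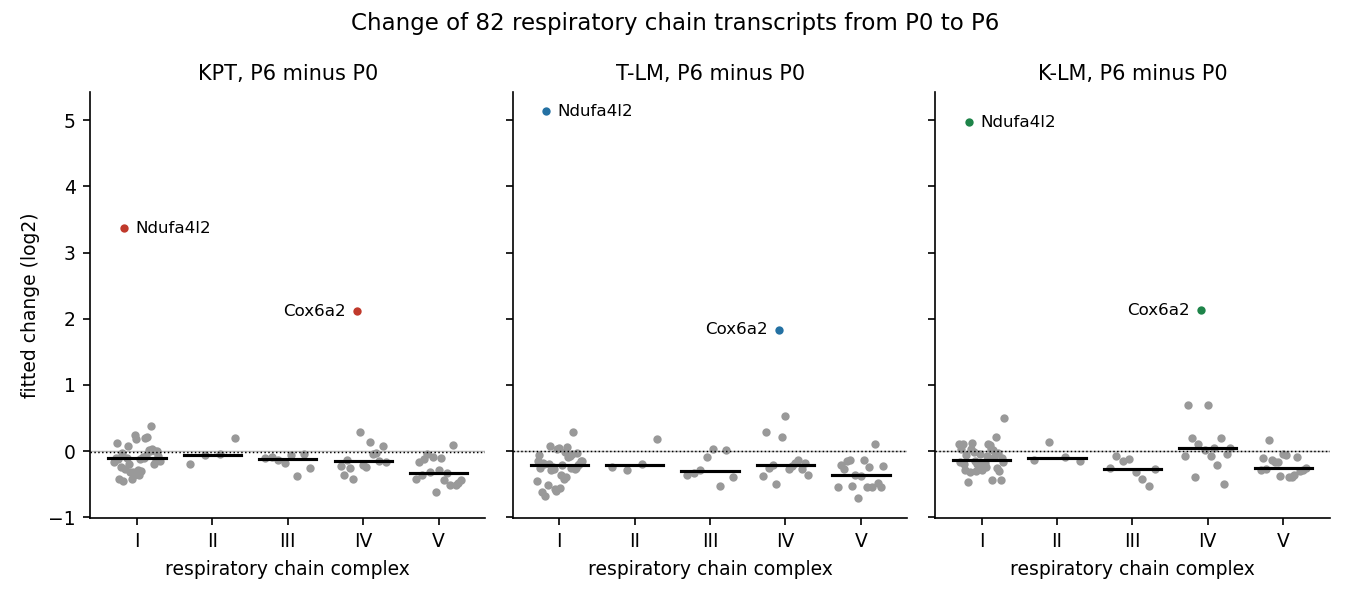
Fitted change from P0 to P6 (log2, y axis) of 82 respiratory chain transcripts by complex (x axis) in KPT, T-LM and K-LM, 1 point per gene. Coloured points passed the threshold, grey points did not, black bars are the median of each complex and the dotted line is the median of all tested probes. Ndufa4l2, placed in complex I by its symbol, and Cox6a2 in complex IV stand above the others in each panel. The remaining members lie between -0.71 and 0.70.

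Complex I oxidises NADH. The 38 genes counted under it by symbol, among them Ndufa4 and its paralog Ndufa4l2, had median changes of -0.10, -0.20 and -0.13 for KPT, T-LM and K-LM. Ndufs1, Ndufv1 and Ndufs7, core subunits that carry iron-sulfur clusters or bind NADH and flavin, were not called in any of the 11 comparisons made. Ndufs1 was at 0.80 and 0.77 in P0, at 0.70, 0.74, 0.91, 1.00 and 0.92 in KPT P6, at 0.69, 0.96, 0.43 and 0.51 in T-LM P6 and at 0.29, 0.39 and 0.20 in K-LM P6. The K-LM P6 samples were the lowest, but their fitted change was -0.44 ± 0.21 (SE, adjusted p = 0.231) and missed the threshold. With the arrays of the late slide alone it was -0.56 and passed the threshold. Ndufv1 changed by 0.00, -0.20 and -0.11 and Ndufs7 by 0.00, -0.03 and -0.31 in KPT, T-LM and K-LM.

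Complex II links the citric acid cycle to the chain, and its 4 subunits had medians of -0.05, -0.21 and -0.11. Sdha, the flavoprotein subunit, was at 0.30 and 0.37 in P0 and at -0.09, 0.01, 0.08, 0.17 and 0.30 in KPT P6, with a change of -0.20 ± 0.20 (adjusted p = 0.686). Sdhb, the iron-sulfur subunit, had changes of -0.06, -0.28 and 0.15 in the same order, with standard errors of 0.18 to 0.25. Complex III, which passes electrons from ubiquinol to cytochrome c, had medians of -0.12, -0.31 and -0.26, and all 8 members were below 0 in KPT and K-LM. Its core protein gene Uqcrc1 changed by -0.18, -0.09 and -0.12, and the Rieske iron-sulfur protein gene Uqcrfs1 by -0.37, -0.53 and -0.42 (adjusted p = 0.459, 0.307 and 0.488). None of these passed the threshold.

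In complex IV, Cox4i1 was at 3.45 and 3.84 in P0 and between 3.29 and 3.68 in KPT P6, and its change was -0.23 ± 0.20 (adjusted p = 0.629). Cox5a, the partner of Cox4i1 on the matrix side, had changes of -0.14, -0.25 and 0.20 in the 3 routes, and the small subunit gene Cox7c had 0.08, -0.17 and -0.04. Complex V had the lowest medians in KPT and T-LM: the KPT median was -0.33, the T-LM median -0.36 and the K-LM median -0.26, with 16 of 17 members below 0 in each and none called. Atp5a1 and Atp5b encode the alpha and beta subunits of the catalytic head. Atp5a1 was at 2.32 and 2.55 in P0, at 2.05, 2.09, 2.12, 1.99 and 2.42 in KPT P6, at 2.09, 1.86, 1.97 and 2.10 in T-LM P6 and at 2.03, 2.18 and 2.10 in K-LM P6. Both lung routes lay below both P0 samples, but the changes of -0.54 (T-LM, adjusted p = 0.189) and -0.28 (K-LM, adjusted p = 0.649) did not pass. Atp5b changed by -0.17, -0.21 and -0.11. Atp5g1, Atp5g2 and Atp5g3 encode the same mature c subunit of the rotor. Atp5g3 had the lowest change among the members not called in KPT (-0.62, adjusted p = 0.234) and in T-LM (-0.71, adjusted p = 0.0733), and Atp5g1 (-0.32 and -0.52) and Atp5g2 (-0.09 and -0.36) were also below 0.

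Ndufa4l2 was the member with the widest range. Over the 15 groups of at least 2 samples in which every array was well above background, its group means spanned 4.66 log2 units, from T-LM P3 to T-LM P5, and P0 read lower still. It is a paralog of Ndufa4 that is induced in hypoxia and is known to lower electron transport. In P0 it was at -7.25 and -7.81. In KPT P6 it was at -4.46, -3.79, -3.48, -4.45 and -4.48, in T-LM P6 at -2.06, -3.08, -2.19 and -2.26, and in K-LM P6 at -2.11, -3.12 and -2.40. Every P6 sample was above both P0 samples, and every T-LM and K-LM P6 sample was above every KPT P6 sample. Of the 4 P0 arrays only 1 was well above background, and neither of the 2 P0 arrays used in the KPT and T-LM fits was, so the size of the rise is a lower bound in these. It was at least 3.47-fold in KPT (fitted change 3.37 ± 0.72 on the log2 scale, adjusted p = 0.00697) and at least 11.8-fold in T-LM (5.13 ± 0.59, adjusted p = 5.1e-06). In K-LM, where 1 of 4 P0 arrays was well above background, the fitted change was 4.97 ± 0.77 (adjusted p = 7.68e-05), and no bound is given. The KPT call was lost without either P0 sample (adjusted p = 0.0646 and 0.107) and without any single KPT P6 sample (adjusted p = 0.0105 to 0.0181). The calls in T-LM and K-LM held under every such omission.

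The rise of Ndufa4l2 did not follow passage number evenly. KPT samples were at -6.28 and -6.17 in P2, at -5.10 and -4.84 in P3, at -5.12, -4.56 and -5.06 in P4, and at -0.85, -2.38, -3.85, -4.41 and -4.68 in P5. T-LM was at -4.56 and -5.07 in P2, at -4.86, -6.35 and -4.37 in P3 and at -2.88, -2.49, -3.50 and -3.51 in P4, and its 6 P5 samples had a lowest level of -1.52, a median of -0.75 and a highest of 1.18. K-LM was at -5.72 in its P2 sample, at -4.72, -5.12, -5.59, -3.93 and -4.72 in P3, at -5.12, -1.89 and -0.18 in P4 and at -1.10, -1.88, -1.22 and -2.65 in P5. P2 and P3 were thus low in each route, and every T-LM P5 sample was above every T-LM P6 sample, as were 3 of 4 K-LM P5 samples above every K-LM P6 sample. The P1 samples, taken after 1 round, spread widely: KPT P1 ran from -5.78 to -1.18, T-LM P1 from -6.15 to -0.78, and the K-LM P1 sample was at -0.20.

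**Figure D2:**
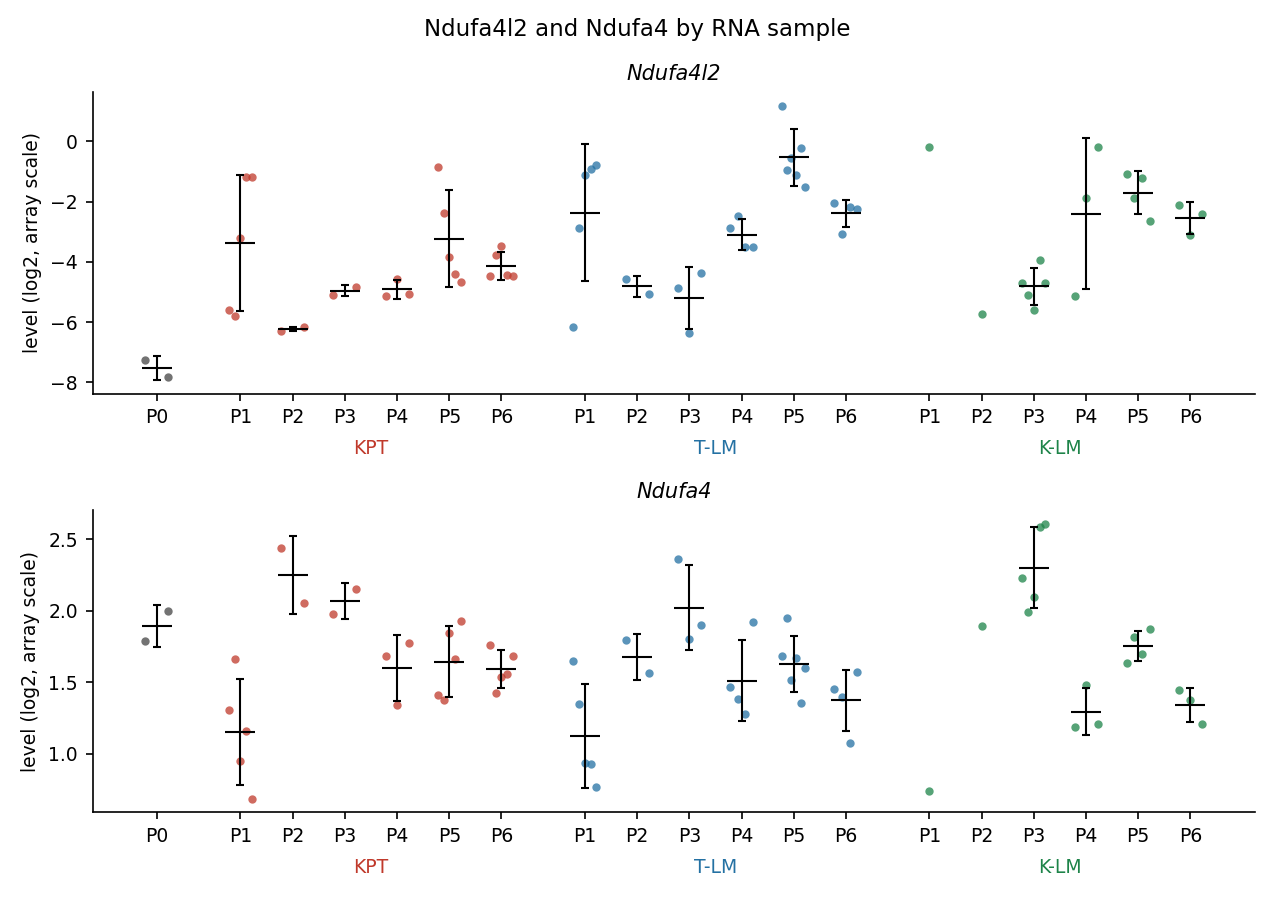
Level (log2, array scale, y axis) of Ndufa4l2 (top) and Ndufa4 (bottom) by passage and route (x axis), 1 point per RNA sample, with bars for the group mean and SD. Ndufa4l2 is at -7.81 to -7.25 in P0 and above that in every other sample, while Ndufa4 stays between 0.69 and 2.60.

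Fibroblast markers were set beside Ndufa4l2. In 5 of the 12 groups with at least 3 samples and complete sums, the same sample was highest in both. How many such matches chance would give was not worked out. The sample with the highest Ndufa4l2 in T-LM P5 (replicate 1, 1.18) also had the highest summed fibroblast marker level of that group (5.44). This was also so in KPT P5 (replicate 1, -0.85 and 4.73) and in K-LM P4 (replicate 5, -0.18 and 3.89). Other groups went the other way. In T-LM P6 the sample with the highest marker sum (replicate 2, 2.79) had the lowest Ndufa4l2 (-3.08). The same held in K-LM P3 (replicate 3, -0.93 and -5.59). In P1, samples with low sums also had low Ndufa4l2. KPT P1 replicates 1 to 4 had sums of -1.45, -1.36, 0.99 and 3.48 and Ndufa4l2 at -5.58, -5.78, -3.21 and -1.18. T-LM P1 replicate 1 had -1.13 and -6.15, and replicate 2 had 2.54 and -2.89. Replicates 3 to 5 of T-LM P1 had sums of 3.53 to 4.05 and Ndufa4l2 at -1.11 to -0.78. The K-LM P1 sample had 4.26 and -0.20. Dcn, which encodes the matrix proteoglycan decorin, rose from P0 to P6 by 5.30, 7.35 and 6.28 in KPT, T-LM and K-LM (adjusted p = 3.98e-07, 2.18e-07 and 4.18e-06). Its P0 mean was -7.58, so these sizes rest partly on values near background. Of the 5 markers, the KPT fit called 1 of the 4 it tested, the T-LM fit 4 and the K-LM fit 3 of 5, all higher in P6. In P0, 1 to 3 of the 5 were above background. From P0 to P6, 1 of 3 tested lung epithelial and 2 of 7 leukocyte markers also rose in T-LM, and the 1 lung epithelial marker tested rose in KPT and K-LM, where no leukocyte marker was called. The part of these cells in the Ndufa4l2 result was not tested. Car9, encoding carbonic anhydrase IX, another target of hypoxia-inducible factors, was also higher in P6 than in P0, by 3.24 ± 0.43 in KPT (adjusted p = 8.02e-05) and 3.74 ± 0.38 in T-LM (adjusted p = 1.09e-06). In K-LM its change of 2.36 ± 0.62 did not pass (adjusted p = 0.0136). Car9 was at -6.49 and -7.27 in P0, so these sizes may rest partly on values near background. Between P2 and P5 the 2 genes went apart: Ndufa4l2 was higher in P5 in each route, while median Car9 was lower. Car9 went from -3.56 to -4.33 in KPT, from -2.34 to -3.88 in T-LM and from -4.37 to -4.89 in K-LM. Whether Car9 and Ndufa4l2 share a cause was not tested.

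**Figure D3:**
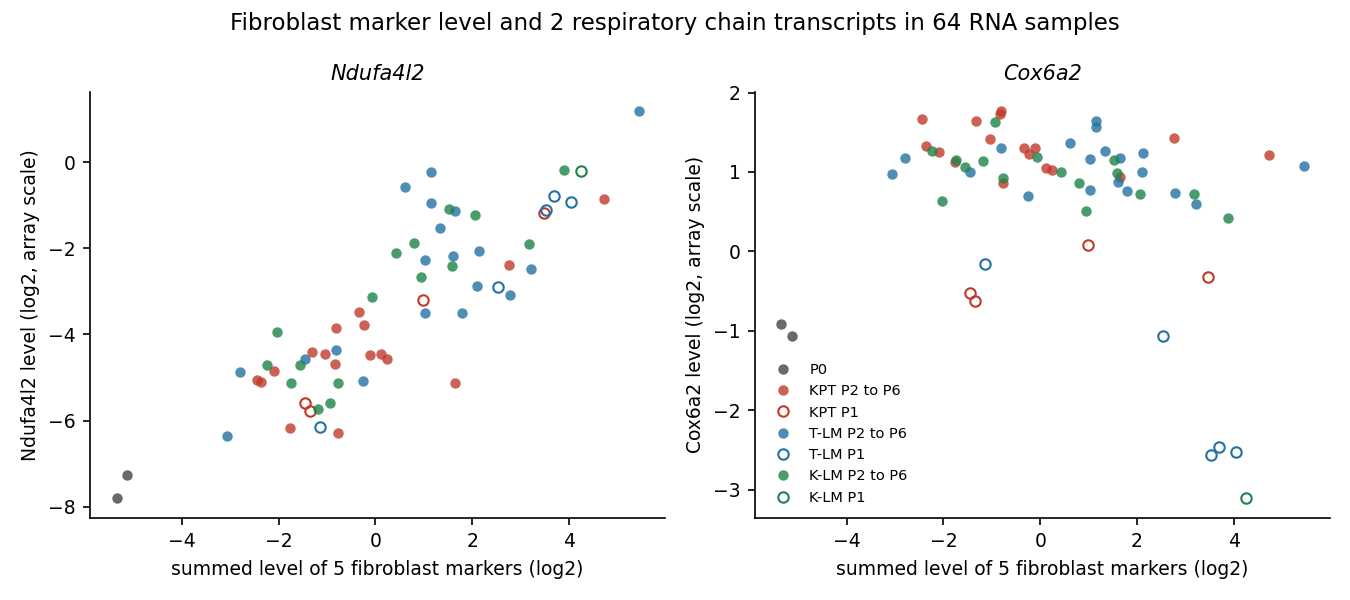
Level of Ndufa4l2 (left) and Cox6a2 (right) (log2, array scale, y axes) against the summed level of 5 fibroblast markers (log2, x axis) in 64 RNA samples, coloured by route, with open symbols for P1. The P0 samples lie at the lower left for Ndufa4l2, with a marker sum of -5.35 to -5.12, and for Cox6a2 the K-LM P1 sample and 3 of the 5 T-LM P1 samples lie lowest, at -3.11 to -2.47.

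Ndufa4, whose product is a subunit now assigned to complex IV, did not pass between P0 and P6. It was at 1.79 and 2.00 in P0, at 1.76, 1.42, 1.53, 1.56 and 1.68 in KPT P6, at 1.46, 1.40, 1.07 and 1.57 in T-LM P6 and at 1.44, 1.38 and 1.21 in K-LM P6. Every P6 sample lay below both P0 samples, but none of the 3 changes passed, with -0.45 in KPT (adjusted p = 0.17), -0.68 in T-LM (adjusted p = 0.0448) and -0.47 in K-LM (adjusted p = 0.18). Repeat arrays of the same RNA on the late slide differed from the first arrays by -0.44 to 0.23 for Ndufa4.

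Cox6a2 was the other member that rose in each route. It encodes the heart and skeletal muscle isoform of complex IV subunit VIa, and Cox6a1, its widely expressed partner, encodes the liver-type isoform. Cox6a2 was at -1.06 and -0.92 in P0. KPT P6 samples were at 1.41, 1.23, 1.30, 1.05 and 1.30, T-LM P6 samples at 1.24, 0.73, 0.88 and 1.17 and K-LM P6 samples at 1.00, 1.18 and 0.99. The groups did not overlap with P0, and the change was 2.11 ± 0.20 in KPT (4.32-fold, adjusted p = 2.62e-06), 1.83 ± 0.20 in T-LM (3.57-fold, adjusted p = 2.75e-06) and 2.13 ± 0.23 in K-LM (4.38-fold, adjusted p = 4.01e-07). These calls held under every alternative tried.

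The higher level was present from P2 on. P2 samples were at 0.86 and 1.12 in KPT, at 1.00 and 0.69 in T-LM and at 1.14 in K-LM, and all samples from P2 to P6 were above both P0 samples. From P3 to P6 Cox6a2 changed by -0.01, -0.14 and 0.07 (adjusted p = 0.987, 0.652 and 0.836). Every P1 sample was below every sample of P2 to P6. KPT P1 was at -0.52, -0.63, 0.08, -0.32 and -0.69, T-LM P1 at -0.16, -1.06, -2.57, -2.52 and -2.47 and the K-LM P1 sample at -3.11, which is the lowest of all. Between P1 and P6, Cox6a2 rose by 1.70 ± 0.16 in KPT (3.24-fold, adjusted p = 6.6e-07) and by 2.76 ± 0.34 in T-LM (6.78-fold, adjusted p = 6.77e-06). Fibroblast marker sums were 2.54 to 4.05 in T-LM P1 replicates 2 to 5 and 4.26 in the K-LM P1 sample, which hold the lowest Cox6a2 levels. They were -1.13 in T-LM P1 replicate 1 and -1.45 and -1.36 in KPT P1 replicates 1 and 2, below every P6 sample of the same route, and Cox6a2 was below the P6 samples there too. The route of T-LM P1 replicate 1 was taken from a label other than its title. The part of fibroblast RNA in the low P1 values was not tested. Of 5 muscle markers (Ckm, Myh2, Myl2, Actc1 and Tnnt3), none was above background in any sample of KPT, of K-LM or of P0, and up to 3 were in T-LM P1 and up to 2 in T-LM P6, although Cox6a2 was detected on all 70 arrays.

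**Figure D4:**
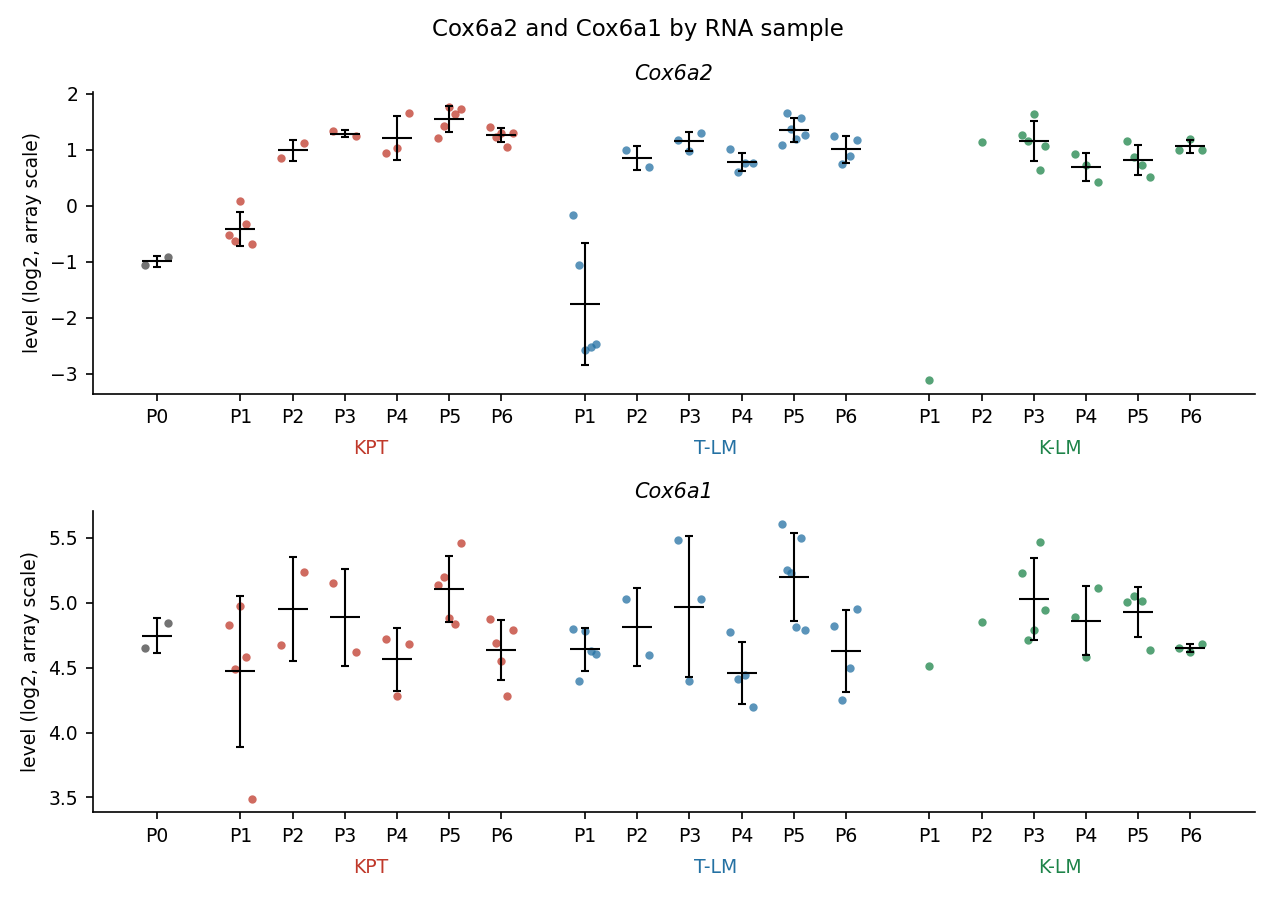
Level (log2, array scale, y axis) of Cox6a2 (top) and Cox6a1 (bottom) by passage and route (x axis), 1 point per RNA sample, with bars for the group mean and SD. Cox6a2 is at or below 0.08 in every P0 and P1 sample and above 0.42 from P2 on, and Cox6a1 shows no such step.

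Cox6a1 was at 4.65 and 4.84 in P0, at 4.88, 4.69, 4.55, 4.29 and 4.79 in KPT P6, at 4.82, 4.25, 4.50 and 4.95 in T-LM P6 and at 4.65, 4.62 and 4.68 in K-LM P6. The P0 samples read 5.17 and 5.07 on the first arrays and 4.13 and 4.61 on the late slide, so the comparison of levels depends on which arrays are used. None of the fitted changes passed (-0.41, -0.49 and 0.12, adjusted p = 0.419, 0.356 and 0.891). The other isoform genes of complex IV were not called between P0 and P6. Cox4i2, the lung and hypoxia isoform of subunit IV, changed by -0.35, 0.30 and 0.69 with standard errors of 0.37 to 0.47. Cox6b2, the testis isoform, changed by -0.21, 0.52 and 0.70, while its common partner Cox6b1 had 0.29, 0.21 and 0.02. Cox7a1, the muscle isoform of subunit VIIa, had 0.13, -0.22 and 0.05, and Cox7a2 had -0.04, -0.18 and -0.21. For Cox8a the values were -0.16, -0.36 and 0.05. Cox8b, the muscle isoform, was not well above background on any array.

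The study's later comparisons ask what changed between an early passage and the last. From P3 to P6, no member was called in KPT, where 0.686% of all tested probes were called and 12 members had an unadjusted p under 0.05. One member was called in T-LM, against 7% of all probes (5.62% higher and 1.37% lower), and 1 in K-LM, against 5.87% (3.85% higher and 2.02% lower). The unadjusted counts were 15 and 28. Most fitted changes were below 0: 67 of 82 in KPT (median -0.18, all probes 0.06), 73 in T-LM (median -0.29, all probes 0.07) and 65 in K-LM (median -0.22, all probes 0.08). This shift accompanied a difference in RNA composition. An index of 16 long mRNAs minus cytosolic ribosomal protein mRNAs had a mean of -7.72 in KPT P3 and -5.98 in KPT P6, -7.25 in T-LM P3 and -6.34 in T-LM P6, -7.66 in K-LM P3 and -5.99 in K-LM P6. With the index as a covariate, the medians were 0.10, -0.01 and 0.02. On the deposited values they were -0.03, -0.15 and -0.18, and the members minus all probes were -0.01, -0.10 and -0.16 for KPT, T-LM and K-LM, where the scaling used here gave -0.24, -0.36 and -0.30.

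Ndufa4l2 was the T-LM call, with a rise of 2.80 ± 0.52 (6.96-fold, adjusted p = 0.0012) from P3 samples at -4.86, -6.35 and -4.37 to P6 samples between -3.08 and -2.06. The change did not pass in K-LM (2.24 ± 0.71, adjusted p = 0.0315) or in KPT, where it was 0.81 ± 0.72 (adjusted p = 0.555). Over the same interval, 4 of 5 fibroblast markers, 2 of 3 tested lung epithelial markers and 2 of 7 leukocyte markers rose in T-LM. In K-LM the counts were 2 of 5, 1 of 1 and 0 of 7, and none rose in KPT. The part of these cells in the call was not tested. Whether the routes differ in this change was not tested.

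Ndufa4 was the K-LM call. The P3 samples were at 2.23, 1.99, 2.10, 2.59 and 2.60 and the P6 samples at 1.44, 1.38 and 1.21, so the groups did not overlap, and the fitted change was -0.80 ± 0.19 (1.74-fold lower, adjusted p = 0.00723). In KPT the change was -0.46 (adjusted p = 0.136) and in T-LM -0.65 (adjusted p = 0.0296). The K-LM call was lost without P3 replicate 4 or 5 (adjusted p = 0.0153 and 0.0197), without any single P6 sample (adjusted p = 0.0212 to 0.0368) and with the index as a covariate (-0.49, adjusted p = 0.211). It was also lost on the deposited values, with normexp and quantile normalization and with no filter on dim probes. A term for replicate number and a fit of the 2 groups alone lost it too, which makes 11 of 19 alternatives. With first arrays only and no term for the late slide, 12 members were called in K-LM, all lower in P6. Among the core members named by rule, Sdha had changes of 0.58, 0.28 and 0.51 (adjusted p = 0.0963, 0.403 and 0.0813) and Sdhb of -0.36, -0.48 and -0.20 (adjusted p = 0.259, 0.166 and 0.477). None of the 12 core members passed in any route. Uqcrc2, a core protein gene of complex III outside the naming rule and chosen after its value was seen, had -0.76 ± 0.19 in K-LM and just missed the threshold.

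The P1 samples were left out of the study's own analysis, and they are set beside P6 here for KPT and T-LM, since K-LM P1 had 1 sample. In KPT, 3 members were called and all rose, while 11.6% of tested probes were called, 5.3% higher and 6.28% lower. In T-LM, 1 member rose, against 9.25% of probes called, 3.83% higher and 5.43% lower. The unadjusted counts were 29 and 9. Fitted changes were here mostly above 0, with medians of 0.23 in KPT (69 of 82 above 0, all probes -0.05) and 0.15 in T-LM (66 of 82, all probes -0.13). With the long mRNA index as a covariate the medians were 0.09 in KPT and -0.15 in T-LM, so the direction in T-LM turned, and on the deposited values they were 0.18 and 0.08. Besides Cox6a2, the KPT calls were 2 genes of complex I. Ndufs8, a core subunit with iron-sulfur clusters, was at -1.27, -1.28, -1.61, -1.72 and -1.80 in P1 and at -0.78, -1.03, -0.89, -0.93 and -1.16 in P6, a rise of 0.61 ± 0.13 (1.53-fold, adjusted p = 0.00171). Ndufb2, a small membrane-arm subunit, was at 0.17, 0.08, 0.10, -0.22 and 0.04 in P1 and at 0.79, 0.69, 0.63, 0.63 and 0.83 in P6, a rise of 0.67 ± 0.14 (1.59-fold, adjusted p = 0.00213). Neither gene's groups overlapped. Both calls were lost with the index as a covariate (0.52, adjusted p = 0.0202, and 0.58, adjusted p = 0.0224), and the index was -5.37 in KPT P1 and -5.98 in KPT P6.

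The last comparisons set the routes against each other at P6, where the question was whether the site of growth left a mark on the chain. T-LM against KPT gave 1 call among the members (11.5% of all probes), K-LM against KPT gave 3 (16%, of which 6.23% higher and 9.79% lower), and K-LM against T-LM gave 0 (11.9%, of which 4.19% higher and 7.69% lower). At an unadjusted p under 0.05 there were 9, 13 and 8. The medians were -0.12, -0.02 and 0.10, against -0.01, -0.01 and -0.02 over all probes. On the deposited values they were -0.11, -0.13 and -0.02, so the median of K-LM against T-LM changed direction and that of K-LM against KPT was larger. The 95% interval lay within 1 log2 unit of 0 for 79, 78 and 80 of the 82 members. Ndufa4l2 was higher in both lung routes than in KPT, by 1.76 ± 0.26 in T-LM (3.38-fold, adjusted p = 9.76e-05) and by 1.60 ± 0.31 in K-LM (3.03-fold, adjusted p = 0.000919), from the P6 samples given above, which do not overlap with KPT. K-LM and T-LM differed by -0.16. Fibroblast markers moved alongside: 5 of 5 were higher in T-LM than in KPT and 1 of 5 (Pdgfra, 2.40, adjusted p = 0.000702) in K-LM. Of the lung epithelial markers, 2 of 3 tested were higher in T-LM than in KPT (Sftpc by 5.86, adjusted p = 1.34e-06) and 1 of 3 in K-LM. Of 7 leukocyte markers, 3 were higher and 1 lower in T-LM (Adgre1 by 2.24, Lyz2 by 2.91, Cd14 by 2.22 and Cd68 by -0.77), and 1 was higher and 1 lower in K-LM (Cd14 by 0.84 and Ptprc by -1.66). The part of these cells in the Ndufa4l2 difference was not tested. Of the markers named, Pdgfra was well above background on 19 of 70 arrays, Adgre1 on 18, Ptprc on 15 and Sftpc on 7. The sizes of their differences thus rest partly on values near background.

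Uqcrh, the hinge protein of complex III, whose promoter is shown above, was lower in K-LM than in KPT. KPT P6 samples were at 2.72, 2.48, 2.29, 2.34 and 2.58 and K-LM P6 samples at 1.91, 1.80 and 1.92, all below KPT, with a difference of -0.58 ± 0.15 (1.5-fold lower, adjusted p = 0.00959). The KPT P6 repeats on the same late slide were at 2.62, 2.41 and 2.54. Against T-LM the difference was -0.62 ± 0.18 (adjusted p = 0.0214). The second probe of Uqcrh gave -0.41 for K-LM P6 minus P0, where the brightest gave -0.56. For KPT P6 minus P0 the second probe gave -0.01 and the brightest 0.05. The call was lost without any K-LM P6 sample (adjusted p = 0.0248 to 0.042) and without KPT P6 replicate 1, 2, 4 or 5 (adjusted p = 0.013 to 0.0257). Scaling over all probes, no filter on dim probes and a term for replicate number also lost it. So did a fit of the 2 groups alone and first arrays without the slide term, which makes 12 of 20 alternatives. Cox4i2 was higher in K-LM than in KPT, by 0.89 ± 0.22 (1.85-fold, adjusted p = 0.00583). Here the samples overlapped, at -6.26, -6.14, -6.66, -6.56 and -5.93 in KPT and -6.06, -6.18 and -5.31 in K-LM, and the fit adds to this a term for the late slide, on which all 5 repeat arrays read lower by 0.33 to 0.89. With first arrays only and without that term the difference was 0.29 (adjusted p = 0.357). It was not called without K-LM P6 replicate 1 or 3 (adjusted p = 0.0104 and 0.0478) or KPT P6 replicate 1 or 4 (adjusted p = 0.0134 and 0.0106).

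Other genes of the pathway were taken from lists. Of 42 tested assembly factors, 1 rose from P0 to P6 in KPT (Ndufaf2, needed for complex I assembly, 0.74 ± 0.15, adjusted p = 0.0044), and none was called in T-LM or K-LM. From P3 to P6 the calls were 0 in KPT, 1 lower in T-LM (Nubpl, -0.58), which is 2.38% where 1.37% of all probes were lower, and 2 lower in K-LM (Ndufaf2, -1.11, and Ndufaf6, -1.01), which is 4.76% where 2.02% were. At P6, 9 of 42 were lower in K-LM than in KPT and none higher, where 9.79% of all probes were lower. Ndufaf2 differed by -1.13 ± 0.10 (adjusted p = 3.71e-07), Ndufaf4 by -0.77, Tmem70, which serves ATP synthase assembly, by -0.63, and the copper chaperone gene Sco2 by -0.61. Against T-LM, 4 of 42 were lower in K-LM, Ndufaf2 by -1.05 (adjusted p = 5.57e-06), where 7.69% of all probes were lower. These K-LM samples all lie on the late slide.

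Among the 74 tested genes of the mitochondrial ribosome, which translates the chain's mitochondrially encoded subunits, none was called from P0 to P6 in any route. From P3 to P6 none was called in KPT or T-LM and 5 (6.76%) fell in K-LM, where 2.02% of all probes did. At P6, 18 (24.3%) were lower in K-LM than in KPT, where 9.79% of all probes were, and 10 (13.5%) lower in K-LM than in T-LM, where 7.69% were. The K-LM P6 samples all lie on the late slide. From P1 to P6, 17 (23%) rose and 1 fell in KPT, where 5.3% of all probes rose, and 6 (8.11%) rose in T-LM, where 3.83% did. The long mRNA index also differed between P1 and P6, at -5.37 and -5.98 in KPT and -5.21 and -6.35 in T-LM. This list was not fitted with the index as a covariate. The 6 electron carriers and inhibitor genes gave 1 call each in T-LM P3 to P6 (Etfdh, -0.81, adjusted p = 0.0041) and KPT P1 to P6 (Atpif1, inhibitor of the ATP synthase, 0.59, adjusted p = 0.000959). The 13 citric acid cycle genes had no call from P0 or P3 to P6. Ogdh, encoding a subunit of the 2-oxoglutarate dehydrogenase, was higher in K-LM than in KPT by 0.49 and than in T-LM by 0.88 at P6.

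Of 10 tested regulators, only Ppargc1a, encoding the coactivator PGC-1alpha that drives mitochondrial biogenesis, was called from P0 to P6, and only in T-LM. It fell in T-LM from P0 to P6, with a change of -2.52 ± 0.35 (adjusted p = 5.46e-05), and from P3 to P6, with -1.51 (adjusted p = 0.00276). In KPT the change from P0 was -1.79 ± 0.56 (adjusted p = 0.0692), and in K-LM it was -0.26 ± 0.44 (adjusted p = 0.82). At P6, K-LM was above KPT by 1.73 ± 0.24 (adjusted p = 4.19e-05) and above T-LM by 2.40 ± 0.28 (adjusted p = 9.45e-06). Ppargc1a was well above background on 64 of 70 arrays. Its means were -3.44 in P0, -5.33 in KPT P6, -5.93 in T-LM P6 and -3.85 in K-LM P6. The sizes of these differences may thus rest partly on values near background. Nrf1 was lower in K-LM than in KPT, with a difference of -0.70 (adjusted p = 0.00719), as was Tfb1m, a mitochondrial rRNA methyltransferase, with -0.77 (adjusted p = 0.000292). Here too, all K-LM P6 samples lie on the late slide.

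Across passages, the median of the 79 members detected throughout was lower in P1, P4 and P6 than in P3 and P5 in each route. Relative to P0 it was -0.27 ± 0.14 (SD, n = 5) in KPT P1, 0.10 in P2, 0.12 in P3, -0.24 in P4, 0.06 in P5 and -0.08 ± 0.10 (n = 5) in P6. In T-LM it was -0.29, -0.04, 0.15, -0.17, 0.04 and -0.15, and in K-LM -0.37, -0.10, 0.20, -0.24, 0.07 and -0.19. P1, P4 and P6 were below P0 in each route and P3 above it. P5 was above P0 on these values, but at -0.001, -0.04 and -0.03 in KPT, T-LM and K-LM with first arrays only. Within each route the long mRNA index was higher in P1, P4 and P6 than in P2, P3 and P5, with means of -5.37, -5.78 and -5.98 against -7.43, -7.72 and -6.95 in KPT, -5.21, -6.54 and -6.35 against -7.13, -7.25 and -7.12 in T-LM, and -5.74, -5.86 and -5.99 against -6.77, -7.66 and -7.86 in K-LM. It was -6.07 in P0, and T-LM P2, P4 and P6 and K-LM P2 had both a lower index and a lower member median than P0. On first arrays the P0 index was -6.45 and -6.29, and the T-LM P6 mean lay between these values. T-LM P2 and P4 and K-LM P2 were below both. Its part in the pattern was measured only through the covariate given above. Over the 17 groups with at least 2 samples, 71 of 85 members had group means within 1 log2 unit, from 0.29 for Ndufs3 upward, with a median range of 0.75. Those with the widest range were Ndufa4l2 (4.66 over the groups measured on every array) and Cox6a2 (3.31).

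**Figure D5:**
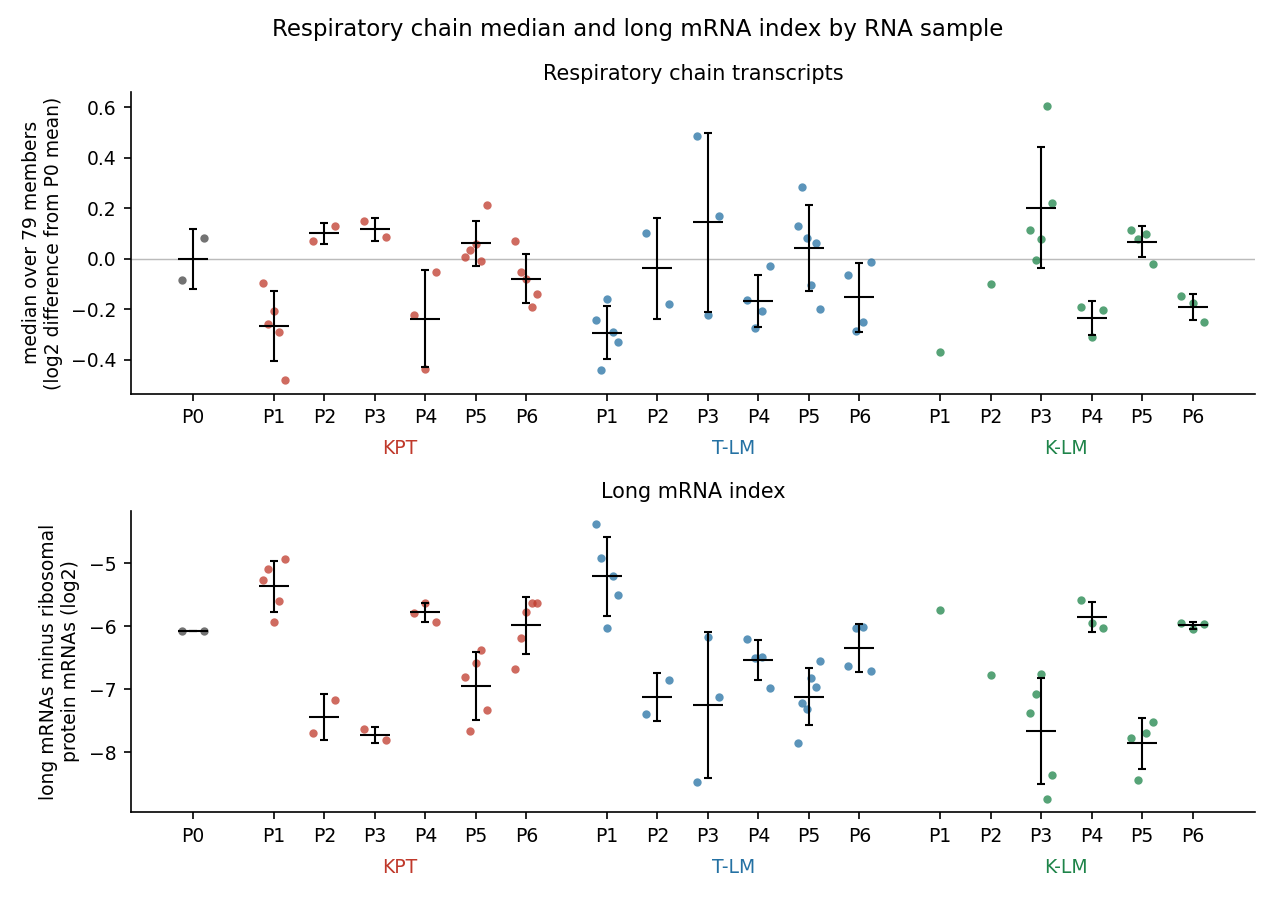
Median over 79 respiratory chain members as difference from the P0 mean (log2, top) and the long mRNA index (log2, bottom) by passage and route (x axis), 1 point per RNA sample with group mean and SD. The median is below 0 in the mean of P1, P4 and P6 in each route, where the index is higher than in P2, P3 and P5 of the same route, as in KPT P1 with -0.27 and -5.37.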

How the data were processed

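Single-colour (Cy5) Agilent mouse arrays were read for 65 RNA samples on 70 arrays. The deposited scanner files hold signal intensity per spot, with a processed intensity that the authors' software (Agilent Feature Extraction 11.0.1.1 on 62 arrays, 12.0.2.2 on 8 arrays of 1 slide) had background-subtracted and detrended. The authors' deposited series values are log2 and matched quantile-normalized log2 median signals to within 0.107. Of 62976 spots, 3671 controls were left out and 55681 probes formed, of which 28026 matched a RefSeq symbol (GRCm38.p6, also the source of promoters). The build of the array design is not given in the sources used here. Levels are log2 processed intensity minus the 75th percentile over the 12218 probes well above background on all arrays. A probe entered a fit when 2 or more of its arrays read it well above background, and was tested with limma 3.58.1 (R 4.3.3), 2-sided, at a Benjamini-Hochberg adjusted p of 0.01. All adjusted p values in the report are from limma, adjusted over all tested probes. KPT and T-LM fits used first arrays of P0 and P2 to P6 (with P1 where compared). K-LM and P6 fits added the repeat arrays, a late-slide term and RNA sample as random block (statmod 1.5.0, correlation 0.67 and 0.383). Group levels average repeat arrays, so differences between them can depart from fitted changes, also in sign. Precision is set by the number of samples, since arrays give no read depth. Fits were tested on simulated data with known changes. From P0 to P6, 17%, 11% and 19% of changes of 1 log2 unit were recovered in KPT, T-LM and K-LM. For changes of 2 log2 units the shares were 71%, 68% and 85%.

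Named genes were the called members (at most 10 per comparison by size), 12 core subunits and the isoform pairs, and non-members came from lists of assembly factors, carriers, citric acid cycle genes, regulators, ribosomal proteins and cell type markers. Members and lists were chosen with earlier results of these data known. Alternatives covered scaling, the deposited values, normexp (on the median signal, since the files hold no mean signal) with quantile normalization, filters, probe choice, slide, replicate number, a long mRNA index (mean level of 16 long mRNAs minus that of 79 cytosolic ribosomal protein mRNAs) and leaving out each sample.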

Additional observations from a re-analysis of the deposited data

Results flagged for a closer look

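Among 180 groups of 4 to 10 samples of the named members, 8 held a sample far from the others by Dixon's ratio, while chance gives about 1 in 20. Ndufb2 in KPT P5 had a highest sample at 1.07 (next 0.55), and in K-LM P5 a lowest at 0.63 (next 0.92). Ndufv1 in T-LM P1 had a lowest sample at 0.24 (next 1.38), and Ndufs7 in T-LM P1 one at 1.88 (next 2.06). Uqcrc1 in K-LM P5 had a lowest sample at -0.19 (next 0.07). Uqcrfs1 had a lowest sample at 0.74 in KPT P5 (next 1.07) and at -0.12 in K-LM P3 (next 0.82). Atp5b in KPT P1 had a lowest sample at 3.62 (next 4.03). The K-LM P3, KPT P1 and T-LM P1 groups enter comparisons of the report, in which none of Uqcrfs1, Atp5b, Ndufv1 and Ndufs7 was called.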

How the results depend on the processing

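No result changed direction past the threshold in any alternative run, and the cause of the following changes was not tested unless said. The rise of Cox6a2 held in every alternative, and that of Ndufa4l2 in T-LM and K-LM from P0, in T-LM from P3 and in both lung routes over KPT in every alternative that tested it. Where a probe had to be well above background on all arrays of the fit, Ndufa4l2 was not tested, and the members called became 1 in KPT, T-LM and K-LM from P0 to P6, 0 in T-LM P3 to P6, 2 in K-LM P3 to P6, 0 in T-LM against KPT and 1 in K-LM against KPT. With no filter they were 1 in KPT P1 to P6, 0 in K-LM P3 to P6 and 1 in K-LM against KPT. The deposited values gave 1 in KPT P0 to P6, 2 in T-LM P1 to P6, 0 in K-LM P3 to P6, 6 in K-LM against KPT and 2 in K-LM against T-LM, and normexp with quantile normalization 1, 2, 6 and 2 in KPT P0 to P6, T-LM P1 to P6, K-LM against KPT and K-LM against T-LM. Scaling over all probes gave 2 in T-LM P1 to P6, and averaging probes 2 in K-LM P3 to P6. With the long mRNA index the counts were 1 in KPT P0 to P6, 1 in KPT P1 to P6, 3 in T-LM P1 to P6 (median -0.15, against 0.15 without), 0 in K-LM P3 to P6, 5 in T-LM against KPT, 5 in K-LM against KPT and 1 in K-LM against T-LM. The slide as a random block gave 13 in K-LM P3 to P6, 7 in K-LM against KPT and 1 in K-LM against T-LM, and first arrays without the slide term 12 in K-LM P3 to P6 and 1 in K-LM against T-LM. Fitting the 2 compared groups alone gave 1 in K-LM against KPT. Leaving out single samples gave 1 to 1 in KPT P0 to P6, 1 to 2 in T-LM P3 to P6 and T-LM against KPT, 3 to 4 in KPT P1 to P6, 0 to 6 in K-LM P3 to P6 and 1 to 3 in K-LM against KPT. The 0 in K-LM came without P3 replicate 4 or 5 or any P6 sample, and the 6 without P3 replicate 3. A second T-LM P3 to P6 call appeared without T-LM P3 replicate 3 and a second T-LM against KPT call without KPT P6 replicate 2. Same-numbered samples correlated between -0.41 and 0.32 in their deviations from group means, and the main fits did not pair samples by number. These correlations cannot exclude pairing, since in groups of 2 samples the deviations mirror each other. The replicate block gave 0 in K-LM P3 to P6 and 1 in K-LM against KPT and left the other counts within 1.5 times. Beyond this, 2 P0 samples, 1 sample each in K-LM P1 and P2, and a late slide that holds all of K-LM P6 limit these comparisons.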
